A study of Homo sapiens with 12 samples.

Results

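The genes described here encode the proteins of the cytosolic ribosome. They were chosen by symbol alone: RPL or RPS followed by a number with or without a final A or X, together with RPLP0, RPLP1, RPLP2 and RPSA. The rule found 77 of the 60648 genes in both count tables, of which 31 encode proteins of the small (40S) subunit and 46 proteins of the large (60S) subunit. The rule uses no measured value, and all 77 had enough counts to be tested in every comparison. FAU, which encodes a ribosomal protein fused to a ubiquitin-like domain, and the near-copies of some members (RPL22L1, RPS27L and others) fall outside the rule and are given separately.

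The libraries came from 2 human acute myeloid leukemia cell lines, MOLM13 and OCIAML5, infected with lentivirus carrying a short hairpin and kept by puromycin selection or by sorting of GFP-positive cells. PSPC1, a paraspeckle protein that binds RNA and DNA, was knocked down in both lines, and PU.1, the myeloid transcription factor encoded by SPI1, in OCIAML5 alone. Each of the 6 groups had 2 libraries: MOLM13 control hairpin, MOLM13 PSPC1 hairpin, OCIAML5 control and PSPC1 hairpin from the PSPC1 experiment, and OCIAML5 control and PU.1 hairpin from a separate experiment with its own count table. OCIAML5 was grown with GM-CSF in another medium with more serum than MOLM13, so line and medium cannot be told apart. Whether the pair of libraries in a group stems from separate cultures, or from separate hairpin sequences, is not stated in the labels, and the p-values therefore measure the spread within these pairs, which may be technical.

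Total counts ran from 15372383 to 22757998 per library in the PSPC1 experiment and from 26305956 to 39716519 in the PU.1 experiment. PSPC1 stood at 130 and 135 CPM (counts scaled to a library of equal size) in MOLM13 controls and 27.1 and 27.7 after its knockdown. OCIAML5 controls held 99.1 and 98.8 CPM and the knockdown libraries 18.9 and 19.2 CPM, and the PU.1 experiment gave 106 and 113 CPM in controls and 59.8 and 58.2 after PU.1 knockdown. SPI1 fell from 227 and 204 CPM to 47.5 and 46.2 after PU.1 knockdown. Of 8 myeloid markers, 5 to 7 exceeded 1 CPM in both libraries of each group, with ANPEP under 1 CPM in every group. CD34 was under 1 CPM in MOLM13 and in OCIAML5 after PSPC1 knockdown, where MPO stood at 0.21 and 1.00 CPM. The 13 markers of other cell types summed to between 85.1 and 108 CPM in MOLM13, mostly PECAM1, and to at most 14 CPM in OCIAML5, with the B cell marker MS4A1 at 0 in every library. The 2 OCIAML5 controls of the PSPC1 experiment stood apart from each other in ribosomal protein messages more than any other pair, and the counts of called members that rest on them are given with and without each.

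A ribosome joins a small subunit, which reads the message, to a large subunit, which forms the peptide bond. Its proteins are made in matched amounts, and their messages are among the most abundant in dividing cells. Many of these messages begin with a C followed by an unbroken run of C and T, the terminal oligopyrimidine (TOP) motif, through which mTORC1 and the repressor LARP1 set their translation. Inherited loss of 1 copy of a ribosomal protein gene causes Diamond-Blackfan anemia, a failure of red cell production.

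The annotated start sites are shown because they carry the sequence feature that the family shares and that the selection rule did not use. RefSeq promoter entries on GRCh38.p14 matched 62 of the 77 genes. The motif searched was a C at the start base followed by at least 4 bases that are each C or T, read on the strand of the gene. It was present in 42 of the 62 (67.7%) and in 1104 of all 27305 promoters (4.04%). When the run could begin within 5 bases of the annotated start, it was present in 50 of the 62 (80.6%) and in 5749 of all promoters (21.1%). Each line gives the sense strand with 10 bases before the start site, and capitals mark the pyrimidine run that opens at the start base. The first 6 genes hold the run and the last 3 do not.
RPL24: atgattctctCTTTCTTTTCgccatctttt (chr3:101686699-101686728, minus strand)
RPS27: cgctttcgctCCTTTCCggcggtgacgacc (chr1:153990752-153990781, plus strand)
RPS19: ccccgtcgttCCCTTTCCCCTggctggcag (chr19:41860245-41860274, plus strand)
RPL12: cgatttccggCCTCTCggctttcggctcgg (chr9:127451387-127451416, minus strand)
RPL13A: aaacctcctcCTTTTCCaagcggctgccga (chr19:49487598-49487627, plus strand)
RPS6: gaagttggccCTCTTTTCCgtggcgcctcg (chr9:19380217-19380246, minus strand)
RPS4X: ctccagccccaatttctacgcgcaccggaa (chrX:72277229-72277258, minus strand)
RPS26: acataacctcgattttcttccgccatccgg (chr12:56041908-56041937, plus strand)
RPS27A: agtgacacacaagacccagactcttcccta (chr2:55231893-55231922, plus strand)
The sequences differ in the length of the run and in what follows it. No match says only that no such run opens at the annotated start base, and the RPS26 and RPS27A windows hold one further in.

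Summed over the 77 genes, ribosomal protein messages took 8.03% and 7.90% of counts in MOLM13 controls and 9.66% and 9.67% after PSPC1 knockdown. In OCIAML5 they took 5.84% and 6.46% in the controls and 6.23% and 6.28% after PSPC1 knockdown, so the treated pair lay between the 2 controls. The PU.1 experiment gave 6.73% and 6.67% in controls and 6.82% and 7.13% after knockdown. The knockdown libraries lay above both controls in MOLM13 and in the PU.1 experiment. In the latter the summed share was thus higher after knockdown in both libraries, while more single genes fell than rose in the test described below, which scales by TMM and not by total counts. With 2 libraries against 2, an exact permutation test cannot give a two-sided p below 0.333, and no test was made of these sums. Counts from the mitochondrial genome moved with the sums in part: they took 9.32% and 9.86% of counts in MOLM13 controls and 12.4% in both MOLM13 knockdown libraries, and 12% and 10.8% in OCIAML5 controls against 14.3% in both knockdown libraries. Their part in the sums was not tested, and the shares with those counts left out are given in the closing section.

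**Figure D1:**
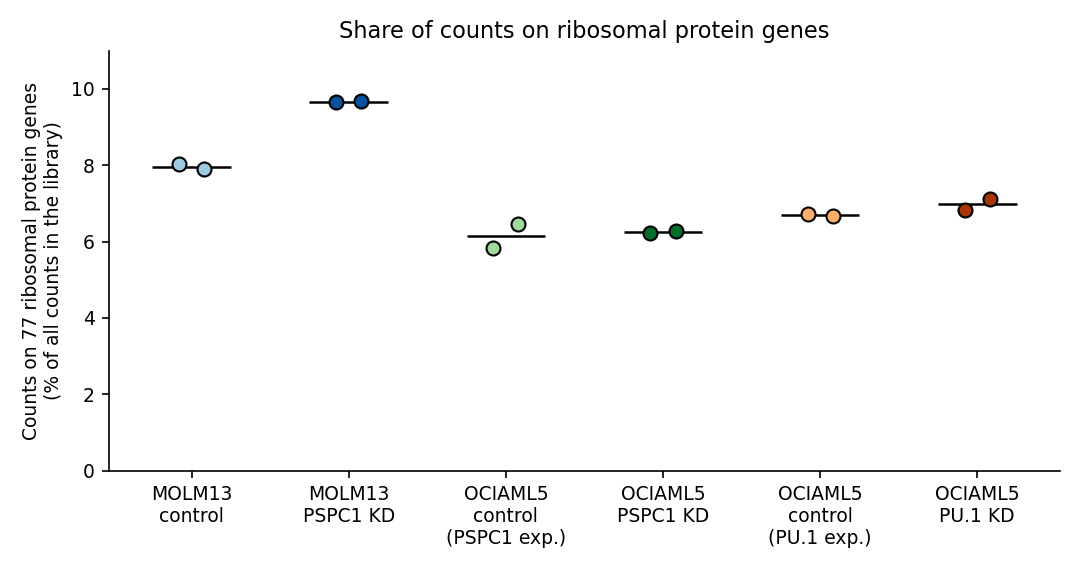
Share of all counts taken by the 77 ribosomal protein genes (vertical axis, percent) in each library, by group. Points are libraries and lines are group means. The MOLM13 knockdown libraries, at 9.66% and 9.67%, lie above their controls, and the OCIAML5 knockdown libraries of the PSPC1 experiment lie between their controls.

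Per kilobase of annotated exon, the median of the 77 genes was 273 CPM in MOLM13 controls, 309 after PSPC1 knockdown, 211 in OCIAML5 controls of the PSPC1 experiment and 203 after knockdown. The PU.1 experiment gave 268 in controls and 227 after knockdown, on a scale normalised separately. The highest per kilobase was RPL8, a 60S protein near the peptidyl transferase center, in MOLM13 controls at 1896 CPM, and RPS2, a 40S protein at the message entry channel, in OCIAML5 controls of the PSPC1 experiment at 1049 CPM. RPS10, RPL36A and RPL17 had few counts and share exon bases with an overlapping gene model, and their values are uncertain. RPS10 stayed between 2.26 and 4.89 CPM and shares 39.4% of its exon bases with RPS10-NUDT3. Pseudogenes named after RPS10 held 1351 counts over all libraries, or 139% of its own counts. RPL36A stayed between 5.04 and 9.82 CPM and shares 8.4% with RPL36A-HNRNPH2, and RPL17 stayed between 7.21 and 14.1 CPM and shares 32.7% with RPL17-C18orf32. Levels in CPM are shares of a library, and in bulk RNA fewer cells of a type and less RNA per cell cannot be told apart.

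PSPC1 knockdown in MOLM13 addressed whether losing PSPC1 changes these messages in that line. Most rose by a similar small amount. Of 77 genes, 61 rose, 4 fell and 12 did not pass (edgeR quasi-likelihood test, Benjamini-Hochberg adjusted over 16457 genes, threshold 0.05), where 57% of all genes tested passed, 27.6% higher and 29.5% lower. The median log2 fold change was 0.25, against 0.01 over all genes tested. The interquartile range of the members was 0.185 on the log2 scale, against 1.08 for all genes. In 65 members both knockdown libraries lay above both controls and in 10 below, where the groups did not overlap in 75.6% of all genes, 38.2% above and 37.4% below. The rise reached both subunits: 25 of 31 genes of the 40S rose and 2 fell (median 0.26), and 36 of 46 genes of the 60S rose and 2 fell (median 0.24).

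The gains were led by RPL28, a 60S protein, which stood at 1062 and 1064 CPM in controls and 1510 and 1505 after knockdown. Its knockdown libraries lay above both controls (log2 fold change 0.50, SE 0.04, adjusted p = 1.96e-16). RPS27, a zinc finger protein of the 40S, went from 628 and 624 to 840 and 844 CPM (log2 fold change 0.43, SE 0.04, adjusted p = 4.46e-12). RPS2 went from 3364 and 3205 to 4440 and 4348 CPM and rose by 0.42 on the log2 scale (adjusted p = 3.87e-13). RPS18, in the head of the 40S, and RPL18 each rose by 0.41 (adjusted p = 4.18e-11 and 6.87e-13). RPS19, the gene most often mutated in Diamond-Blackfan anemia, went from 1105 and 1070 to 1408 and 1445 CPM (log2 fold change 0.39, SE 0.04, adjusted p = 6.90e-11). RPS6, the substrate of the S6 kinases, went from 2369 and 2344 to 2864 and 2848 CPM (log2 fold change 0.28, adjusted p = 7.67e-09). RPS14, lost in the myelodysplastic 5q- syndrome, rose by 0.26 (adjusted p = 1.29e-06), and RPSA, mutated in congenital asplenia, by 0.31. The stalk proteins that recruit elongation factors all rose, by 0.33 for RPLP0, 0.19 for RPLP1 and 0.16 for RPLP2.

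Among the proteins of the large subunit with known roles outside it, RPL11 rose by 0.31 (adjusted p = 1.56e-09), while RPL5, with which it binds the 5S RNA and MDM2, stood at 1403 and 1428 CPM in controls and 1457 and 1409 after knockdown (log2 fold change 0.02, not called). RPL3, at the peptidyl transferase center, rose by 0.22 (adjusted p = 2.14e-06), and RPL22 rose from 130 and 133 to 166 and 158 CPM (0.31, adjusted p = 4.71e-06). Among those that fell were RPL24, RPS27A and RPL36A. RPS27A, made as a fusion to ubiquitin, went from 878 and 909 to 806 and 780 CPM (log2 fold change -0.17, SE 0.04, adjusted p = 6.74e-04). RPL36A (-0.68, adjusted p = 4.04e-03) is among the genes of few counts and did not pass without the second knockdown library (-0.49, adjusted p = 0.0995). Of the 19 genes listed as causes of Diamond-Blackfan anemia, 12 rose, 1 fell and 6 did not pass (median 0.25).

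**Figure D2:**
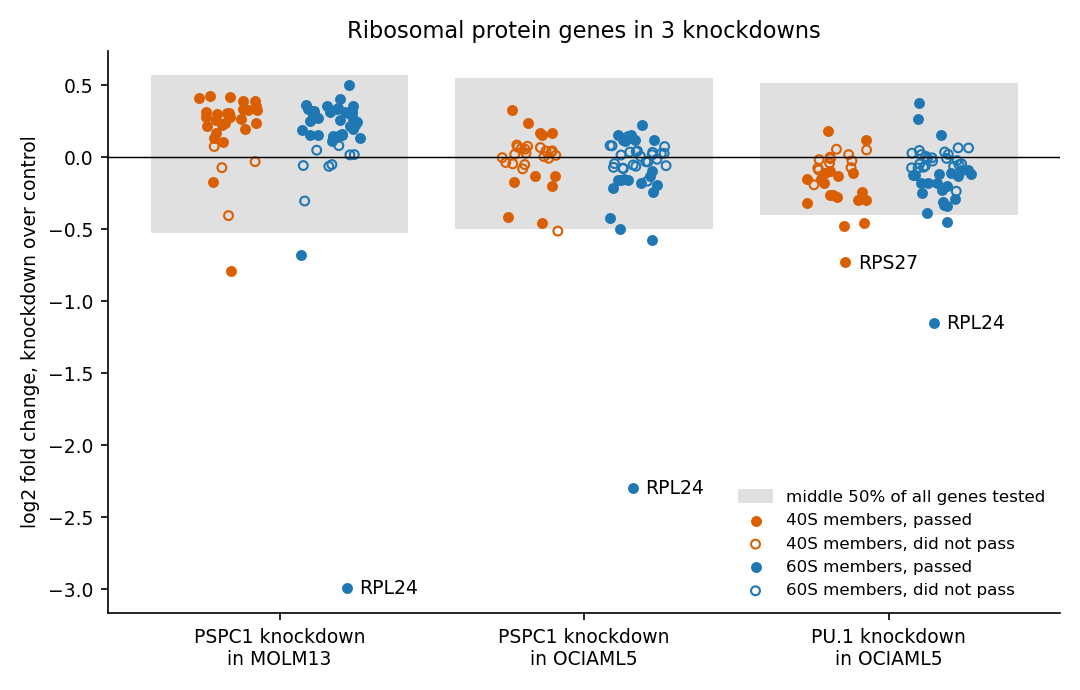
Log2 fold change of every ribosomal protein gene (vertical axis) in the 3 knockdowns, with 40S and 60S genes side by side. Filled points passed the test, open points did not, and the grey band is the interquartile range of all genes tested. Of the 77 MOLM13 points 66 sit above 0, most of them within a narrow span, and RPL24 is the lowest point in each knockdown.

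PSPC1 knockdown in OCIAML5 asked the same of the second line. Here 12 genes rose, 20 fell and 45 did not pass, where 56% of all genes tested passed, 27.5% higher and 28.4% lower. The median log2 fold change was 0.01, against 0.02 over all genes. Both knockdown libraries lay above both controls in 13 members and below in 24, where the groups did not overlap in 75.8% of all genes, 38.8% above and 37% below. These counts turned on single libraries: without control replicate 1, 5 genes rose and 37 fell (median -0.08), without control replicate 2, 36 rose and 16 fell (median 0.07), and without knockdown replicate 2, 7 rose. With library size alone as the scaling, 34 rose and 11 fell, with the median of all genes at 0.10. Of the 40S genes 5 rose and 6 fell (median 0.02), against 3 and 12 without control replicate 1 and 17 and 4 without replicate 2. Of the 60S genes 7 rose and 14 fell (median -0.03), against 2 and 25 without replicate 1 and 19 and 12 without replicate 2.

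Members of both subunits fell in OCIAML5. RPL13A, a 60S protein that also acts in the GAIT translation-silencing complex, stood at 2116 and 2296 CPM in controls and 1475 and 1486 after knockdown. The groups did not overlap, and it fell by 0.58 on the log2 scale (SE 0.04, adjusted p = 8.28e-19). RPL12, at the base of the stalk, went from 1229 and 1309 to 945 and 947 CPM (log2 fold change -0.42, SE 0.04, adjusted p = 5.50e-14). RPL10A, at the site where spent tRNA leaves, went from 807 and 845 to 581 and 591 CPM (-0.49, adjusted p = 1.08e-15). RPS13 went from 428 and 491 to 338 and 332 CPM (-0.46, adjusted p = 4.22e-12), and RPS27A from 659 and 750 to 523 and 536 CPM (-0.41, adjusted p = 1.63e-11). RPL5 (-0.24), RPSA (-0.17) and RPL3 (-0.15) also fell. RPL22 fell by 0.19 (adjusted p = 3.90e-03), a call lost without control replicate 2 (-0.12, adjusted p = 0.119), without knockdown replicate 1 (-0.16, adjusted p = 0.0563) and with library size alone (-0.11, adjusted p = 0.0995). With that scaling RPL3 did not pass either (-0.07, adjusted p = 0.118).

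Among the genes that rose in this line RPS19 led, with 597 and 684 CPM in controls and 776 and 836 after knockdown (log2 fold change 0.33, SE 0.04, adjusted p = 8.76e-09). RPS4X, the X-linked 40S protein, went from 853 and 922 to 1052 and 1045 CPM (0.24, adjusted p = 5.51e-07). RPL35A, a Diamond-Blackfan gene of the 60S, rose by 0.23 (adjusted p = 1.02e-05), and RPL18 by 0.16 (adjusted p = 7.31e-04). RPS18 (0.17), RPS28 (0.17) and RPLP1 (0.12) passed with all libraries and not without control replicate 1, where they stood at 0.03 (adjusted p = 0.435), 0.10 (adjusted p = 0.0530) and 0.05 (adjusted p = 0.217). Without knockdown replicate 2, RPS28 (0.11, adjusted p = 0.0835) and RPLP1 (0.11, adjusted p = 0.0670) did not pass either. RPS6 (0.07), RPS14 (0.09), RPL11 (0.02), RPLP0 (0.04), RPLP2 (-0.01) and RPS27 (0.08) did not pass. Of these, RPS6 (0.12), RPS14 (0.17), RPL11 (0.07) and RPLP0 (0.08) passed without control replicate 2, and all 4 passed with library size alone. RPS14 also passed without knockdown replicate 1 (0.13), and RPLP2 passed as lower without control replicate 1 (-0.10). Of the 19 Diamond-Blackfan genes 4 rose, 3 fell and 12 did not pass (median 0.06), against 3 and 3 without control replicate 1 and 12 and 2 without replicate 2.

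PU.1 knockdown in OCIAML5 gave 5 genes that rose, 38 that fell and 34 that did not pass, where 60.4% of the 16861 genes tested passed, 29.6% higher and 30.9% lower. The median log2 fold change was -0.09, against 0.02 over all genes. Both knockdown libraries lay above both controls in 9 members and below in 47, where the groups did not overlap in 78.7% of all genes, 40% above and 38.8% below. With library size alone the split turned to 32 that rose and 17 that fell, with the members' median at 0.06 and that of all genes at 0.17, so the members stood below the median of all genes under both scalings. Of the 40S genes 2 rose and 17 fell (median -0.11), of the 60S genes 3 rose and 21 fell (median -0.07), and of the 19 Diamond-Blackfan genes 1 rose and 8 fell (median -0.07).

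RPS27 had the largest fall after RPL24. It stood at 752 and 739 CPM in controls and 449 and 451 after PU.1 knockdown (log2 fold change -0.73, SE 0.04, adjusted p = 3.73e-27), or 1.66-fold lower. RPS21, a 40S protein, went from 343 and 315 to 220 and 259 CPM (-0.46, SE 0.05, adjusted p = 1.45e-13). RPL8 went from 2338 and 2300 to 1753 and 1803 CPM (-0.38, adjusted p = 1.07e-15), and RPSA fell by 0.32 (adjusted p = 2.16e-11). RPL28 fell by 0.29 (adjusted p = 1.57e-09), RPLP2 by 0.25, RPLP1 by 0.18, RPS14 by 0.15 and RPLP0 by 0.12. With library size alone RPLP1 stood at -0.02 (adjusted p = 0.583), and RPS14 (0.0019) and RPLP0 (0.03) turned sign without passing. RPS19 also turned sign with that scaling. It fell by 0.13 (adjusted p = 2.35e-03) and stood at 0.02 with library size alone and at -0.09 (adjusted p = 0.0817) without knockdown replicate 1. RPL36A (-0.45) passed on few counts, and not with library size alone (-0.30, adjusted p = 0.0596). RPS6 (-0.02), RPL3 (-0.01), RPL11 (0.01), RPL5 (0.05) and RPS27A (-0.04) did not pass, whereas with library size alone RPS6 (0.13), RPL3 (0.14), RPL11 (0.16), RPL5 (0.20) and RPS27A (0.11) passed as higher.

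The 5 genes that rose after PU.1 knockdown were RPL7, RPL22, RPS26, RPL6 and RPS4X. RPL7, a 60S protein, stood at 1570 and 1578 CPM in controls and 2022 and 2067 after knockdown (log2 fold change 0.38, SE 0.03, adjusted p = 2.35e-15). RPL22 went from 107 in both controls to 128 and 130 CPM (0.27, SE 0.05, adjusted p = 2.26e-06). RPS26, a 40S protein at the message exit channel, went from 371 and 353 to 400 and 423 CPM (0.19, SE 0.04, adjusted p = 5.62e-05). RPL6 rose by 0.16 (adjusted p = 1.01e-04). RPS4X rose by 0.12 (adjusted p = 2.82e-03) and did not pass without control replicate 1 (0.07, adjusted p = 0.137).

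RPL24 had the largest change of the 77 in each of the 3 knockdowns, and it was the only member that changed by at least 2-fold in any of them. It encodes a 60S protein at the face toward the small subunit, and mice with a mutation in it (Belly spot and tail) make less protein. The gene lies at chr3:101681091-101686782 on the minus strand of GRCh38 and shares no exon base with another gene of the annotation. It stood at 599 and 582 CPM in MOLM13 controls and at 72.1 and 76.6 after PSPC1 knockdown. OCIAML5 controls of that experiment held 427 and 462 CPM and the knockdown libraries 90.4 and 90.9. In the PU.1 experiment the controls held 533 and 527 CPM and the knockdown libraries 237 and 241. No knockdown library overlapped a control. The fall was 7.93-fold in MOLM13 (log2 fold change -2.99, SE 0.05, adjusted p = 2.13e-42), 4.90-fold in OCIAML5 (-2.29, SE 0.05, adjusted p = 3.09e-38) and 2.22-fold after PU.1 knockdown (-1.15, SE 0.04, adjusted p = 9.15e-37). Over the alternatives run, the value stayed between -3.04 and -2.94 in MOLM13, between -2.35 and -2.21 in OCIAML5 and between -1.18 and -0.998 after PU.1 knockdown, and it passed in each.

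Set among all genes tested, 231 of 16457 (1.40%) fell more than RPL24 in MOLM13, 313 (1.90%) in OCIAML5 and 888 of 16861 (5.27%) after PU.1 knockdown. Among the genes at or above its mean level, 2 of 428 fell more in each of the PSPC1 comparisons and 11 of 310 after PU.1 knockdown. Ranked by CPM per kilobase of exon among the 77, RPL24 was 46th in both MOLM13 controls and 70th in both knockdown libraries. It went from 45th and 46th to 69th in OCIAML5 with PSPC1 knockdown, and from 47th and 46th to 65th with PU.1 knockdown. Counts assigned to its processed copies elsewhere in the genome summed to 53 and 38 in MOLM13 controls and to 4 in each knockdown library. In OCIAML5 the copies held 32 and 36 counts against 10 and 9 with PSPC1 knockdown, and 65 and 71 against 23 and 17 with PU.1 knockdown. These few counts, not scaled to depth, were lower in every knockdown library than in its controls. Whether reads passed between RPL24 and its copies was not tested. Hairpin sequences were not used here, and their relation to this gene was not tested.

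**Figure D3:**
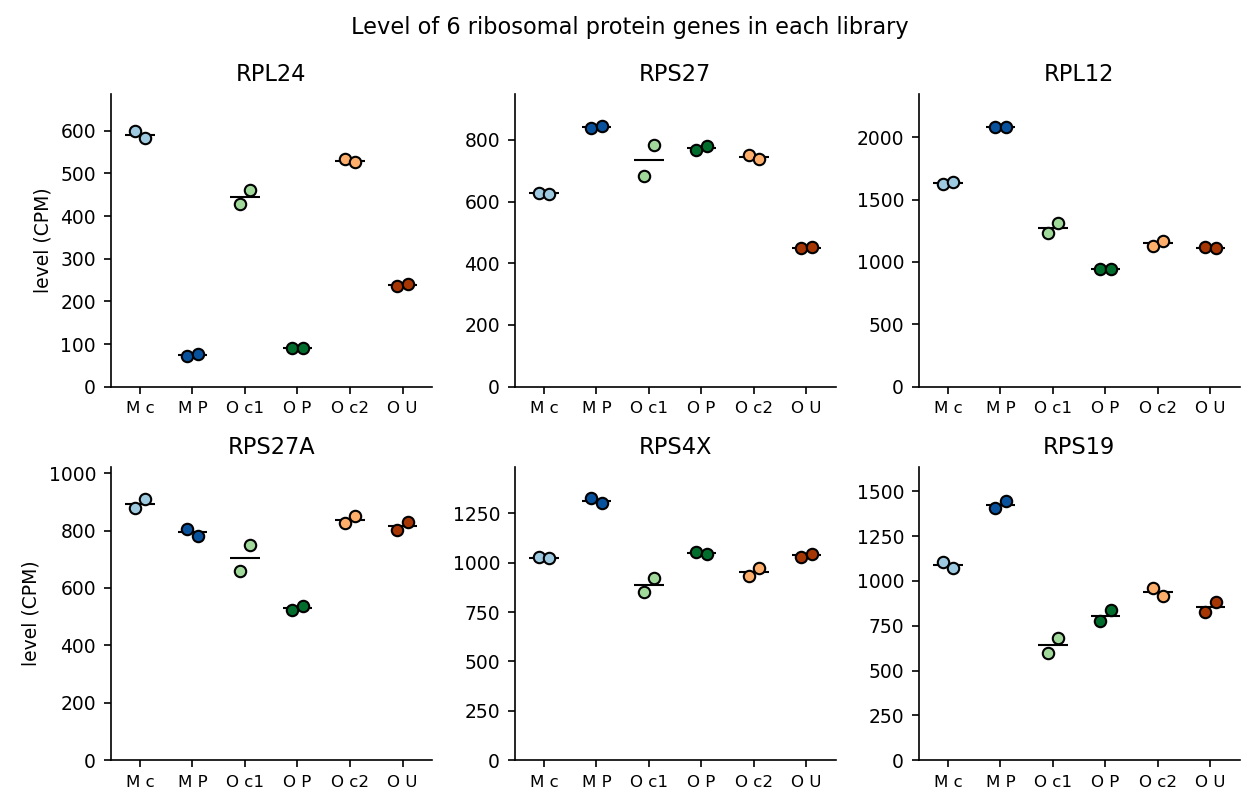
CPM of 6 ribosomal protein genes in all 12 libraries (vertical axis, from 0 in each panel). M c and M P are MOLM13 control and PSPC1 knockdown, O c1 and O P the OCIAML5 control and knockdown of the PSPC1 experiment, O c2 and O U those of the PU.1 experiment; points are libraries and lines group means. RPL24 falls in all 3 knockdowns, RPS27 rises in MOLM13 and falls after PU.1 knockdown, and RPL12 rises in MOLM13 and falls in OCIAML5 after PSPC1 knockdown.

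Sorted by what passed, 19 members rose in MOLM13, did not pass in OCIAML5 with PSPC1 knockdown and fell with PU.1 knockdown, and 18 rose in MOLM13 alone. Another 7 rose in MOLM13 and fell in both OCIAML5 knockdowns. The same patterns were not counted over all genes tested, so whether these numbers are particular to the family is not known. These counts rest on the OCIAML5 controls of the PSPC1 experiment: in the order given they were 14, 15 and 17 without control replicate 1 and 10, 7 and 6 without replicate 2. RPL24 was the only member that fell in all 3, also without either of these controls. RPS4X rose in all 3, its PU.1 call resting on a control library of that experiment. RPS27A, together with RPL24, fell in both lines after PSPC1 knockdown. RPL17 and RPS10 passed in none. A gene that passes in one line and not in the other is not thereby shown to differ, and the difference between the effects was tested directly.

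The effect of PSPC1 knockdown differed between the lines for most members. In the interaction, OCIAML5 minus MOLM13, 2 were higher and 58 lower, where 30.5% of all genes tested passed, 18% higher and 12.5% lower. The median of the difference was -0.24, against 0.06 over all genes. It stayed at -0.31 without OCIAML5 control replicate 1, with 70 lower, and at -0.15 without control replicate 2, with 48 lower. RPL12 rose in MOLM13 from 1629 and 1645 to 2081 in both knockdown libraries (log2 fold change 0.35, adjusted p = 1.98e-11) and fell in OCIAML5, and the difference was -0.77 (SE 0.05, adjusted p = 7.05e-17). RPL10A, at 0.08 in MOLM13 (not called) and -0.49 in OCIAML5, differed by -0.58 (adjusted p = 3.06e-12), and RPL28, at 0.50 and -0.07 (not called in OCIAML5), also by -0.58 (adjusted p = 1.90e-12). RPL13A differed by -0.52 (adjusted p = 1.88e-11): in MOLM13 it stood at 3478 and 3498 CPM in controls and 3353 and 3357 after knockdown (-0.06, not called). RPL22 differed by -0.50, RPSA by -0.48 and RPS2 by -0.47. RPL24, which fell in both, fell less in OCIAML5, with a difference of 0.69 (SE 0.07, adjusted p = 1.54e-11). RPS19 (-0.06) and RPS4X (-0.12) did not pass, although RPS19 did without OCIAML5 control replicate 1 (-0.15, adjusted p = 2.16e-03).

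**Figure D4:**
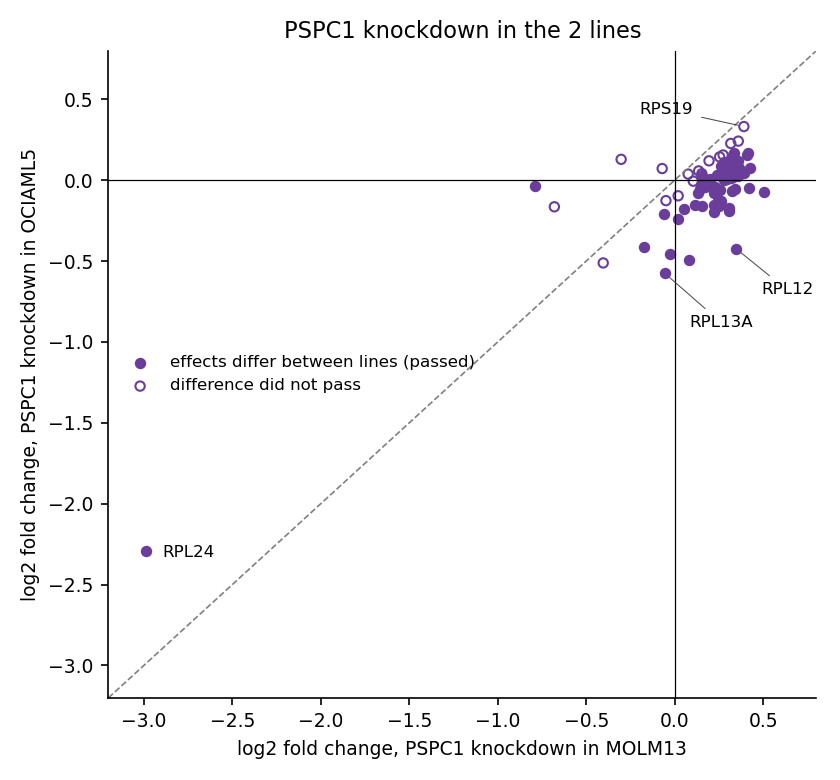
Log2 fold change after PSPC1 knockdown in MOLM13 (horizontal axis) and in OCIAML5 (vertical axis) for each ribosomal protein gene. Filled points are genes whose difference between lines passed the test, and the dashed line marks equal effects. Most points lie to the right of 0 and below the dashed line, while RPL24 lies far below 0 on both axes.

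Effects of the PU.1 and PSPC1 hairpins within OCIAML5 were compared in 1 fit of its 8 libraries. PU.1 minus PSPC1, 12 members were higher and 21 lower, where 45.6% of 17159 genes tested passed, 22.8% higher and 22.9% lower. The median of the difference was -0.09, against 0.00 over all genes, and these counts moved with single libraries: without PSPC1 control replicate 1, 21 were higher and 12 lower (median 0.02), without control replicate 2, 11 were higher and 44 lower (median -0.17), and without PU.1 knockdown replicate 1, 10 were lower. RPL24 differed by 1.16 (SE 0.07, adjusted p = 7.42e-20), its fall being smaller with PU.1 knockdown. RPL13A (0.54, SE 0.06, adjusted p = 5.55e-11), RPL22 (0.47, adjusted p = 1.74e-06), RPL10A (0.40, adjusted p = 1.16e-07), RPL12 (0.40, adjusted p = 1.04e-07) and RPS27A (0.39, adjusted p = 1.61e-06) had the more positive effect with PU.1 knockdown. RPS27 differed by -0.79 (SE 0.06, adjusted p = 2.43e-14), RPS21 by -0.45 (adjusted p = 2.23e-05, and 0.0603 with DESeq2) and RPS19 by -0.44 (SE 0.07, adjusted p = 3.46e-07). Hairpin target and experiment cannot be told apart in this difference beyond what the 2 control pairs share.

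The lines differed at baseline. In OCIAML5 controls of the PSPC1 experiment against MOLM13 controls, 3 members were higher, 70 lower and 4 did not pass, where 60.6% of all genes tested passed, 30.7% higher and 30% lower. The median was -0.32, against 0.01 over all genes, and it stood at -0.25 without OCIAML5 control replicate 1, with 65 lower, and at -0.39 without replicate 2, with 70 lower. Both OCIAML5 libraries lay below both MOLM13 libraries in 73 members and above in 3, where the groups did not overlap in 78.8% of all genes, 39.1% below and 39.7% above. The OCIAML5 controls also enter the knockdown comparison above. RPL7 stood at 3445 and 3479 CPM in MOLM13 and 1494 and 1612 in OCIAML5, a log2 difference of -1.16 (adjusted p = 5.13e-31), and RPL8 at 4134 and 4052 against 1867 and 2091 (-1.05, adjusted p = 1.54e-28). RPS18 stood at 2223 and 2178 CPM in MOLM13 and 986 and 1197 in OCIAML5 (-1.01, adjusted p = 6.58e-25), and RPL21 also differed by -1.01 (adjusted p = 1.04e-26). The 3 that were higher in OCIAML5 were RPS26, RPS27 and RPL37. RPS26 stood at 147 and 144 CPM in MOLM13 and 347 and 367 in OCIAML5, 2.45-fold higher (log2 difference 1.30, SE 0.05, adjusted p = 2.50e-29). RPS27 differed by 0.23 (adjusted p = 1.23e-05) and RPL37 by 0.22 (adjusted p = 1.13e-05).

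Position in the genome went with part of this baseline difference. The 4 members on chromosome 8 (RPL7, RPL8, RPS20 and RPL30) differed by -1.16 to -0.88, with a median of -0.99, and the 73 elsewhere ran from -1.01 to 1.30 with a median of -0.31, with 66 lower. Of the 16457 genes tested, 15841 could be placed on a chromosome by symbol. Among these, the 604 on chromosome 8 had a median of -0.56, with 57.0% lower, and the 15237 others a median of 0.02, with 29.3% lower. Of the translation factors, the 4 on chromosome 8 (EIF3E, EIF3H, EEF1D and PABPC1) ran from -1.04 to -0.82 with a median of -0.86. The 14 elsewhere ran from -0.93 to 0.20 with a median of -0.26, so the ranges overlapped. TPT1 (-0.93), on chromosome 13, and EEF1A1 (-0.91), on chromosome 6, were as low as those on chromosome 8. All genes placed on chromosomes 13 and 6 had medians of -0.49 and -0.47, with 58.7% and 52.6% lower. No test of these differences by chromosome was made. The chromosome content of these cells was not tested.

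**Figure D5:**
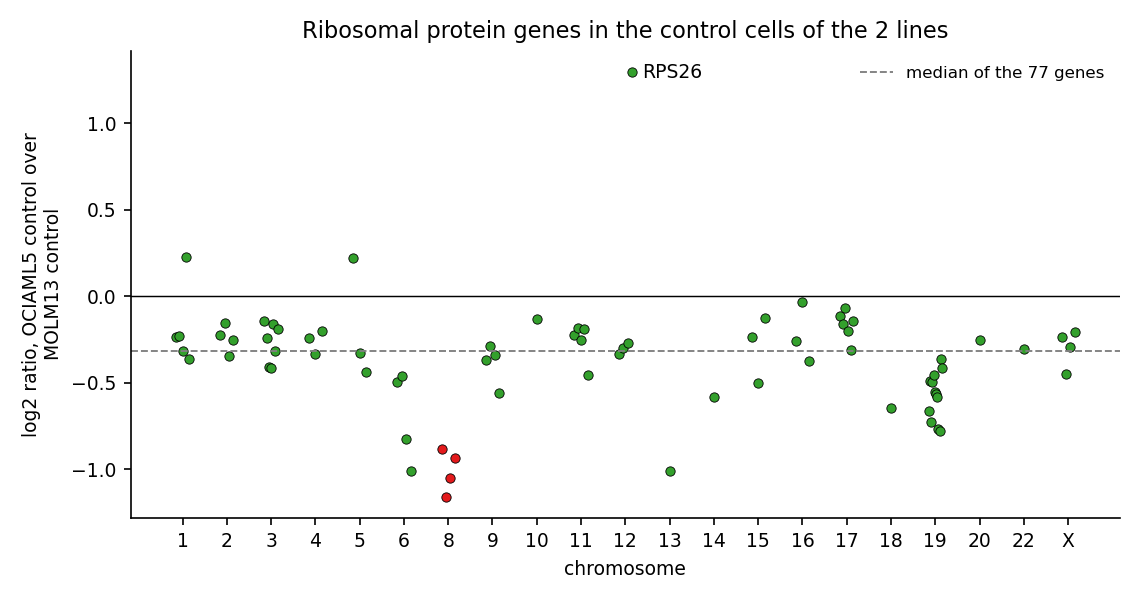
Log2 difference between OCIAML5 and MOLM13 controls (vertical axis) for the 77 ribosomal protein genes, by chromosome (horizontal axis). Red points are genes on chromosome 8 and the dashed line is the median of all 77. The 4 red points sit between -1.16 and -0.88, and RPS26 sits above 0 at 1.30.

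OCIAML5 controls of the 2 experiments carry the same line and a control hairpin, and their difference gives the background between experiments. PU.1 minus PSPC1 experiment, 46 members were higher, 4 lower and 27 did not pass, where 38.9% of all genes tested passed, 20% higher and 18.9% lower (median 0.15, against 0.00 over all genes). Without PSPC1 control replicate 1 the counts were 27 and 10 (median 0.07), and without replicate 2 they were 59 and 2 (median 0.23). RPL36, a 60S protein that shares 17.6% of its exon bases with HSD11B1L, held 441 and 501 CPM in the PSPC1 experiment and 905 and 910 in the PU.1 experiment, a log2 difference of 0.95 (SE 0.05, adjusted p = 1.19e-21). RPS28 differed by 0.85 (adjusted p = 9.99e-18). The 4 that were lower were RPL37 (-0.23), RPL12 (-0.21), RPL13A (-0.15) and RPS24 (-0.12). For RPL36 and RPS28 the difference between controls exceeded the fold change in each OCIAML5 knockdown, which for RPL36 was 0.03 (not called) and -0.22.

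Members with and without the pyrimidine run at the start were described side by side, and whether the run goes with the change was not tested. In MOLM13 the 42 with the run had a median of 0.28, with 35 that rose and 2 that fell. The 20 without it had a median of 0.18, with 14 that rose and 1 that fell. Of all genes tested there, 27.6% were higher and 29.5% lower. In OCIAML5 with PSPC1 knockdown the medians were 0.03 and 0.01, against -0.06 and -0.08 without control replicate 1 and 0.10 and 0.05 without replicate 2. With PU.1 knockdown both medians were -0.09. RPL24 and RPS19, printed above with long runs, moved in opposite directions after PSPC1 knockdown in both lines. RPS4X, with no run at the start base, rose in both lines as RPS19 did.

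Relatives of these genes outside the rule moved in both directions. RPL22L1, the near-copy of RPL22, stood at 145 and 146 CPM in MOLM13 controls and 70.6 and 72.4 after PSPC1 knockdown, at 155 and 162 and then 41.8 and 43.2 in OCIAML5, and at 139 and 158 and then 96.8 and 103 with PU.1 knockdown. It fell by 1.02, 1.90 and 0.57 on the log2 scale. RPS27L, the p53-responsive near-copy of RPS27, rose by 0.47, 1.26 and 0.29. In all, 1 of 6 near-copies tested rose and 4 fell in MOLM13, where 27.6% of all genes tested were higher and 29.5% lower. In OCIAML5 with PSPC1 knockdown 2 of 6 rose and 3 fell, where 27.5% of all genes were higher and 28.4% lower. With PU.1 knockdown 4 of 5 rose and 1 fell, where 29.6% of all genes were higher and 30.9% lower. FAU changed by 0.46, 0.26 and -0.33, each past the test.

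Other genes of protein synthesis were counted for comparison, where 57%, 56% and 60.4% of all genes tested passed in the MOLM13, OCIAML5 PSPC1 and PU.1 comparisons. Of 18 translation factors 12 rose and 4 fell in MOLM13 (median 0.19), 5 rose and 7 fell in OCIAML5 with PSPC1 knockdown (median -0.04), and 5 rose and 2 fell with PU.1 knockdown (median 0.05). EEF1A1, which brings tRNA to the ribosome, rose by 0.56, 0.11 and 0.22. EEF2, which moves the ribosome along, rose by 0.65 in MOLM13 and did not pass in OCIAML5 (0.01 and 0.05), and EIF4B fell by 0.59 and 0.71 with PSPC1 knockdown in the 2 lines. Of 17 genes of the mTORC1 and TOP pathway 3 rose and 10 fell in MOLM13, 7 rose and 8 fell in OCIAML5, and 5 rose and 9 fell with PU.1 knockdown. LARP1, the TOP repressor, fell by 0.67, 0.51 and 0.09, and EIF4EBP1, the repressor of the cap-binding protein EIF4E, by 1.73, 1.70 and 0.92. MTOR rose by 0.41 and 0.63 with PSPC1 knockdown and fell by 1.05 with PU.1 knockdown. DDIT4, an inhibitor of mTORC1, fell by 2.00 and 2.55 and rose by 1.34.

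Of 10 chaperones and importers of ribosomal proteins, none rose and 9 fell in MOLM13 (median -0.54), 1 rose and 7 fell in OCIAML5 with PSPC1 knockdown (median -0.50), and none rose and 6 fell with PU.1 knockdown (median -0.38). In the same order 29.5%, 28.4% and 30.9% of all genes tested were lower and 27.6%, 27.5% and 29.6% higher. In either direction 57%, 56% and 60.4% passed. With PU.1 knockdown the number of these genes that passed was near that either-direction share, though all 6 fell. IPO5, an importer, fell by 1.46, 1.18 and 0.51, IPO9 by 0.83, 0.51 and 0.51, GRWD1, the chaperone of RPL3, by 0.53, 0.25 and 0.38, and HEATR3, the carrier of RPL5, by 0.50, 0.66 and 0.57.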

How the data were processed

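RNA was measured by stranded mRNA sequencing in 12 libraries. The authors deposited 2 tables of whole-number read counts per gene, per the file headers, one for each experiment. The submitters' processing notes name Trim Galore 0.6.7, STAR 2.7.10a, HTSeq 2.0.2, DESeq2 1.36.0 and GRCh38. Annotation release and strand handling were unknown (not given in the sources used here). Counting on a near-identical copy can lower a gene's value: 1194 pseudogenes are named after 76 of the members, and 663 held counts. Gene positions and exon lengths came from GENCODE 29 on GRCh38.

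Counts were filtered with filterByExpr, scaled by TMM and tested with edgeR 4.0.16 (quasi-likelihood F test, R 4.3.3), Benjamini-Hochberg adjusted over all genes at 0.05. The PSPC1 table was fitted with its 4 groups, the PU.1 table alone, and the 8 OCIAML5 libraries together for contrasts across experiments, since the tables were otherwise scaled separately. The code was tested on simulated data. Alternatives were DESeq2 1.42.0, other scalings and filters, a replicate block, a threshold of 0.01, added pseudogene counts and leaving out each library. Values were given for 12 fixed members, for the 5 largest rises and falls in each knockdown among members that passed with groups that do not overlap, and for the 3 largest each way in other contrasts; other members named in a count are given by value or name only. Some genes that the rule would name are not reported here. The members and lists were chosen with earlier results of these data known.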

Additional observations from a re-analysis of the deposited data

Results flagged for a closer look

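The PSPC1 effect of the following members differed between the lines by the interaction test of edgeR, each value being the log2 effect in OCIAML5 minus that in MOLM13, with 2 libraries in each of 4 groups. The difference was -0.77 for RPL12 (adjusted p = 7.05e-17), -0.58 for RPL10A (3.06e-12), -0.58 for RPL28 (1.90e-12), -0.50 for RPL22 (1.69e-06), -0.48 for RPSA (5.72e-10) and -0.37 for RPL3 (2.27e-07). Smaller differences were -0.30 for RPLP0 (adjusted p = 9.75e-06), -0.29 for RPL11 (3.03e-05), -0.26 for RPL5 (1.36e-04), -0.24 for RPS27A (1.80e-03), -0.21 for RPS6 (1.51e-03), -0.18 for RPLP2 (2.03e-02) and -0.18 for RPS14 (2.66e-02). RPS14 stood at -0.08 (adjusted p = 0.206) and RPLP2 at -0.09 (0.128) without OCIAML5 control replicate 2. Neither passed without MOLM13 control replicate 2, MOLM13 knockdown replicate 2 or OCIAML5 knockdown replicate 1, with values from -0.18 to -0.12, nor RPS14 without MOLM13 control replicate 1 (-0.16, adjusted p = 0.0954). With library size alone neither RPS14 nor RPLP2 passed (both -0.14, adjusted p = 0.0761 and 0.0656). RPS14 did not pass with DESeq2 either (-0.20, adjusted p = 0.159). RPL24 (0.69, adjusted p = 1.54e-11) differed the other way.

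Within OCIAML5 the PU.1 effect minus the PSPC1 effect passed for a second set. It was 1.16 for RPL24 (adjusted p = 7.42e-20), 0.54 for RPL13A (5.55e-11), 0.47 for RPL22 (1.74e-06), 0.39 for RPS27A (1.61e-06), 0.31 for RPL5 (1.24e-05) and 0.16 for RPL3 (1.97e-02). It was -0.79 for RPS27 (adjusted p = 2.43e-14), -0.45 for RPS21 (2.23e-05), -0.44 for RPS19 (3.46e-07), -0.28 for RPLP1 (3.41e-04), -0.22 for RPLP2 (4.08e-03), -0.22 for RPS14 (6.36e-03) and -0.14 for RPLP0 (3.62e-02). RPLP0 did not pass without any 1 of 7 libraries. Without PSPC1 control replicate 1, RPS14 stood at -0.11 (adjusted p = 0.121) and RPLP2 at -0.12 (0.0607), and without PU.1 knockdown replicate 1 both stood at -0.15 (0.108 and 0.0877). RPS14 also did not pass without PSPC1 knockdown replicate 2 (-0.17), nor RPL3 without PSPC1 control replicate 2 (0.09) or PSPC1 knockdown replicate 1 (0.16, adjusted p = 0.0525). RPS21 had an adjusted p of 0.0603 with DESeq2. With all libraries, RPLP0 also did not pass with RLE scaling (-0.13), library size alone (-0.09), no filter (-0.17) or added pseudogene counts (-0.13). RPL3 did not pass with no filter (0.13).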

How the results depend on the processing

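Of 1876 values for single genes under the alternatives, 1777 were scored as unchanged, 25 newly passed, 68 no longer passed and 6 were scored as turned in sign. A value that did not pass in either fit could change sign and be scored as unchanged. RPL3 did so between the OCIAML5 controls, at -0.04 with all libraries and 0.05 without PSPC1 control replicate 2. The 6 scored as turned all came with library size alone after PU.1 knockdown, where the median of all genes moved from 0.02 to 0.17. They were RPS6 0.13, RPS14 0.0019, RPS19 0.023, RPS27A 0.11, RPL3 0.14 and RPLP0 0.032. That scaling gave 32 higher and 17 lower after PU.1 knockdown (median 0.062), and 34 and 11 in OCIAML5 after PSPC1 knockdown (median 0.087). With no filter, the controls of the 2 experiments gave 2 lower and a median of 0.23, with 1 CPM in at least 2 libraries PU.1 knockdown gave 8 higher, and at a threshold of 0.01 the difference between lines gave 1 higher. The causes were not tested.

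With each library that enters a comparison left out in turn, the counts of that comparison ranged as follows. The fit with all libraries, which gave 61 higher in MOLM13, is not part of these ranges. PSPC1 knockdown in MOLM13 gave 55 to 57 higher. In OCIAML5 it gave 5 to 36 higher and 16 to 37 lower, with a median of -0.085 to 0.065. The difference between lines gave 1 to 3 higher and a median of -0.31 to -0.15. PU.1 minus PSPC1 gave 11 to 21 higher and 10 to 44 lower, with a median of -0.17 to 0.016. The difference between line controls had a median of -0.39 to -0.25. That between the OCIAML5 controls gave 27 to 59 higher and 2 to 10 lower, with a median of 0.071 to 0.23.

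Without mitochondrial counts the summed shares were 8.81% and 11.03% in MOLM13 control and knockdown, 6.94% and 7.30% in OCIAML5 with PSPC1 knockdown and 7.44% and 7.77% in the PU.1 experiment. Pseudogene counts brought them to 9.71% in MOLM13 knockdown, 6.33% in OCIAML5 PSPC1 knockdown and 6.77% in the PU.1 controls.

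For libraries of 1 number, the correlation of their deviations over all genes was 0.0082 in MOLM13, 0.0057 in OCIAML5 and 0.0049 in the PU.1 experiment. Over the members alone it was 0.22, -0.12 and -0.58 in the same order. With the replicate block, 61 rose and 4 fell in MOLM13, 12 rose and 19 fell in OCIAML5, and 5 rose and 35 fell after PU.1 knockdown (median -0.09). Depth limits RPS10, RPL17 and RPL36A among the genes named, each under 16 CPM in every library.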

Other observations

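In OCIAML5 controls against MOLM13 controls, the 4 members on chromosome 6 had a median of -0.66 and the 12 on chromosome 19 a median of -0.56. Of all genes tested, the 801 placed on chromosome 6 had a median of -0.47 and the 1170 placed on chromosome 19 a median of -0.28. On chromosome 13 RPL21 was the only member (-1.01), and the 283 genes placed there had a median of -0.49. Among the near-copies outside the family rule, RPL36AL changed by -1.29 in MOLM13, -0.62 in OCIAML5 with PSPC1 knockdown and 0.15 with PU.1 knockdown, and RPL7L1 by -0.51, -0.16 and 0.25, each past the test of edgeR. RPL26L1 stood at 0.00 in MOLM13, where it did not pass, and rose by 0.64 and 0.56 in OCIAML5. Of the translation factors, EEF1D fell by 0.37, 0.42 and 0.35 in the 3 knockdowns, and PABPC1 rose by 0.30 and 0.08 with PSPC1 knockdown and fell by 0.24 with PU.1 knockdown. HNRNPA1, an RNA-binding protein often listed with them, fell by 0.45 and 0.71 with PSPC1 knockdown and stood at -0.08, not called, with PU.1 knockdown.

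Counts assigned to pseudogenes differed by line for some parents. For RPS2 they came to 0.403% of the parent's counts in the MOLM13 libraries and 9.05% in the OCIAML5 libraries, and for RPL13 to 0.264% and 7.82%. For RPL23A they came to 12.7% and 10.6%, and for RPL32 to 4.42% and 4.54%. For RPS10, a gene of few counts, they exceeded the parent's own counts, at 181% and 120%.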
